A study of Homo sapiens with 9 samples.

Results

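The genes described here are 38 genes that carry the work of the proximal tubule or mark its injury, out of 28395 genes in a table of RNA-seq counts from human kidney cell lines. They were chosen as a list of symbols by function, with no expression value in the rule, but with earlier results of these data known. The list holds receptors that take up filtered protein, enzymes and transporters of the luminal and basolateral membranes, metabolic enzymes, and markers of injured or progenitor-like tubule cells. All 38 were found in the table. The study used these lines to follow metabolism from normal tubule to primary and metastatic clear cell renal cell carcinoma (ccRCC). HK2 is an immortalized line labelled as parental cells of the proximal tubule and was the only normal line. 786-O, labelled as ccRCC, is the parental cancer line, taken from a primary tumor. 786-M1A is the metastatic derivative of 786-O, recovered from lung metastases after injection into animals. All 3 lines were grown in Plasmax, a medium that follows the nutrient levels of human serum, with no other treatment, and each gave 3 libraries. The study describes replicate dishes of each line, so that every p-value measures the spread between cultures of 1 line and not between patients or between independent lines. Its methods state more dishes per line than the 3 libraries labelled here, and which dishes these were is not stated.

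The proximal tubule reclaims most of what the glomerulus filters. Filtered proteins are taken up by the megalin and cubilin receptors, peptides are cut by brush border peptidases, and sodium, glucose, phosphate and organic acids enter through luminal carriers driven by the sodium pump of the basolateral membrane. Organic anions and cations, many drugs among them, are secreted in the opposite direction. Injured tubule cells reduce these functions and turn on surface proteins such as kidney injury molecule 1 and vascular cell adhesion molecule 1, and ccRCC is thought to arise from cells of this segment.

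The libraries held 30212291 to 45362428 counts on genes, so that 3 counts, used here as the floor, correspond to 0.0661 to 0.0993 CPM (counts scaled to a common library total). Each of the 9 libraries correlated best with another library of its own line, no pair of libraries agreed within counting noise, and no library stood apart. Of the 38 members, 17 reached a mean of 50 counts over the 9 libraries and were tested, or 44.7%, and the same percentage of all genes in the table passed this filter. Of these 17, 14 had at least 50 counts in every library, while *SLC13A3*, *SLCO4C1* and *GATM* passed through the lines where they were high and had to differ for that reason. Of the 21 members under the filter, 4 had 0 counts in all 9 libraries (*LRP2*, *SLC13A1*, *SLC22A6* and *SLC22A8*) and a further 3 never exceeded 3 counts in any library (*CA4*, *SLC5A1* and *SLC47A1*).

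As a check of the label, HK2 lacked several genes that define the segment. *LRP2*, which encodes megalin, the main receptor for filtered protein, had 0 counts in every HK2 library, and so did the organic anion transporters *SLC22A6* and *SLC22A8*, the glucose transporter *SLC5A1* and the sulfate transporter *SLC13A1*. In HK2, 8 of the 38 members never exceeded 3 counts, against 11 in 786-O and 11 in 786-M1A. Other members of the segment were present in HK2 at high levels, among them *GGT1*, *DPP4*, *MME* and *SLC4A4*. In libraries made from bulk cultures, fewer cells with a transcript and less transcript per cell cannot be told apart.

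**Figure D1:**
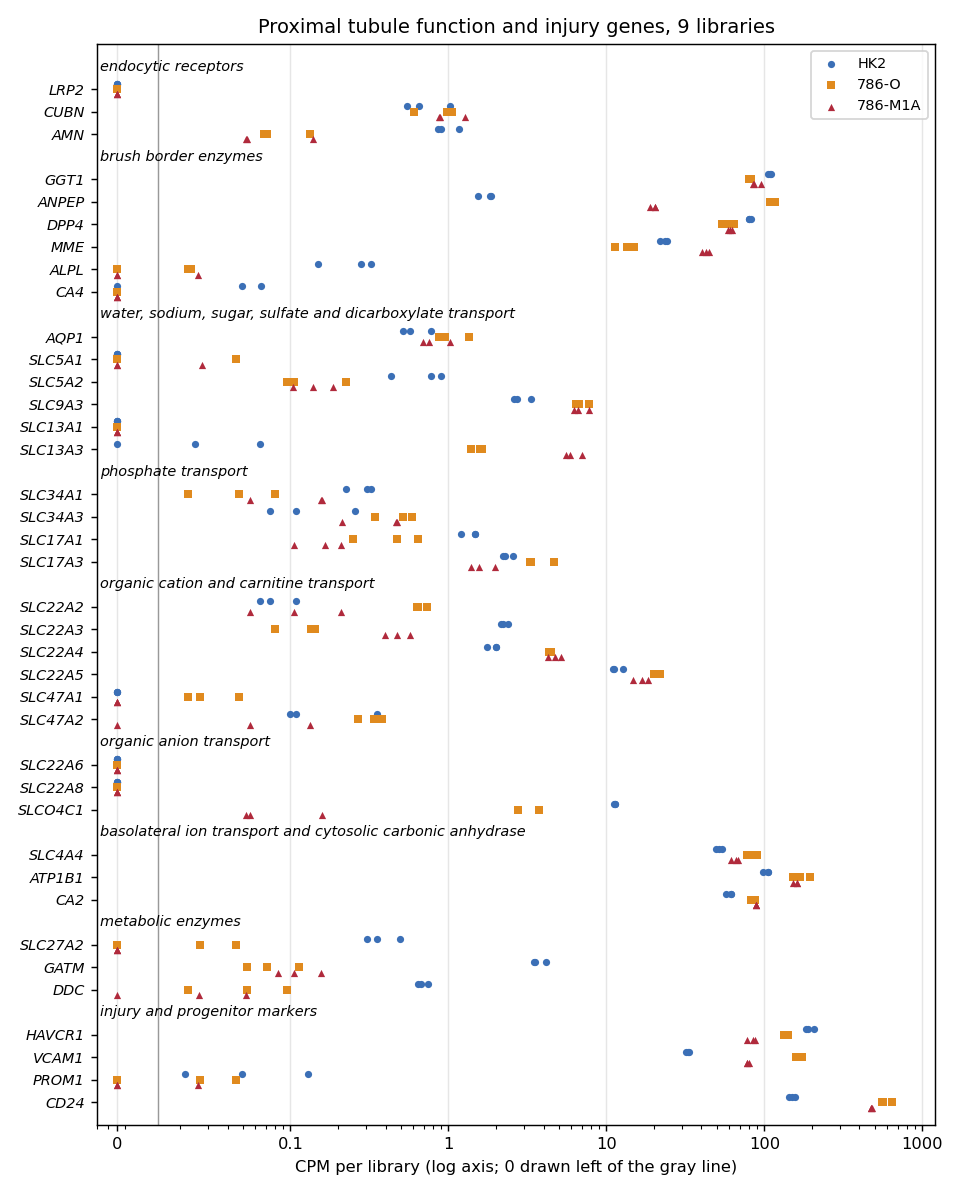
Level of each of the 38 members in the 9 libraries, in CPM on a log axis, grouped by role; each point is 1 library (blue circles HK2, orange squares 786-O, red triangles 786-M1A), and libraries with 0 counts are drawn left of the gray line. *LRP2*, *SLC13A1*, *SLC22A6* and *SLC22A8* sit at 0 in all 9 libraries, while *HAVCR1*, *VCAM1*, *CD24*, *GGT1* and *ATP1B1* lie above 10 CPM in every line.

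Against HK2, all 17 tested members differed in 786-O by edgeR's quasi-likelihood test (adjusted p under 0.05), 11 higher and 6 lower. This has to be read against a background in which 84.2% of the 12695 genes tested differed, 41.6% higher and 42.6% lower. In 786-M1A against HK2 all 17 differed as well, again 11 higher and 6 lower, where 84.9% of all genes differed, 41.6% higher and 43.3% lower. Both comparisons use the same HK2 libraries and are given side by side. Between 786-M1A and 786-O, 11 of the 17 differed, 3 higher and 8 lower in 786-M1A, against 56.0% of all genes, with 27.9% higher and 28.0% lower. Size separated the members more than the calls did. At least a 2-fold difference was found for 8 of the 17 in 786-O against HK2, 6 higher and 2 lower, where 22.3% of all genes reached it, 9.18% higher and 13.1% lower. In 786-M1A against HK2 it was found for 9, 6 higher and 3 lower, beside 25.4% of all genes, 10.4% higher and 15.0% lower. In 786-M1A against 786-O it was found for 6, 2 higher and 4 lower, beside 6.59% of all genes, 2.03% higher and 4.55% lower. The counts against HK2 include *SLC13A3*, *SLCO4C1* and *GATM*, and those between the cancer lines include *SLC13A3* and *SLCO4C1*. Each had to differ from the lines where it was near the floor. Of the 14 members with at least 50 counts in every library, 5, 6 and 4 reached a 2-fold difference in 786-O against HK2, 786-M1A against HK2 and 786-M1A against 786-O, beside 14.8%, 17.7% and 2.71% of the 11172 genes with such counts. The median log2 fold change of the tested members was 0.70 in 786-O against HK2, 0.56 in 786-M1A against HK2 and -0.12 in 786-M1A against 786-O, beside medians over all genes of -0.01, -0.02 and 0.00. With 3 libraries against 3, an exact two-sided permutation test of a single gene cannot go below p = 0.1, and it gave that value for all 17 members in both comparisons with HK2. The libraries of the lines did not overlap for 17 members in 786-O against HK2, beside 85.5% of all genes tested, for 17 in 786-M1A against HK2 (85.0%) and for 12 in 786-M1A against 786-O (61.6%).

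**Figure D2:**
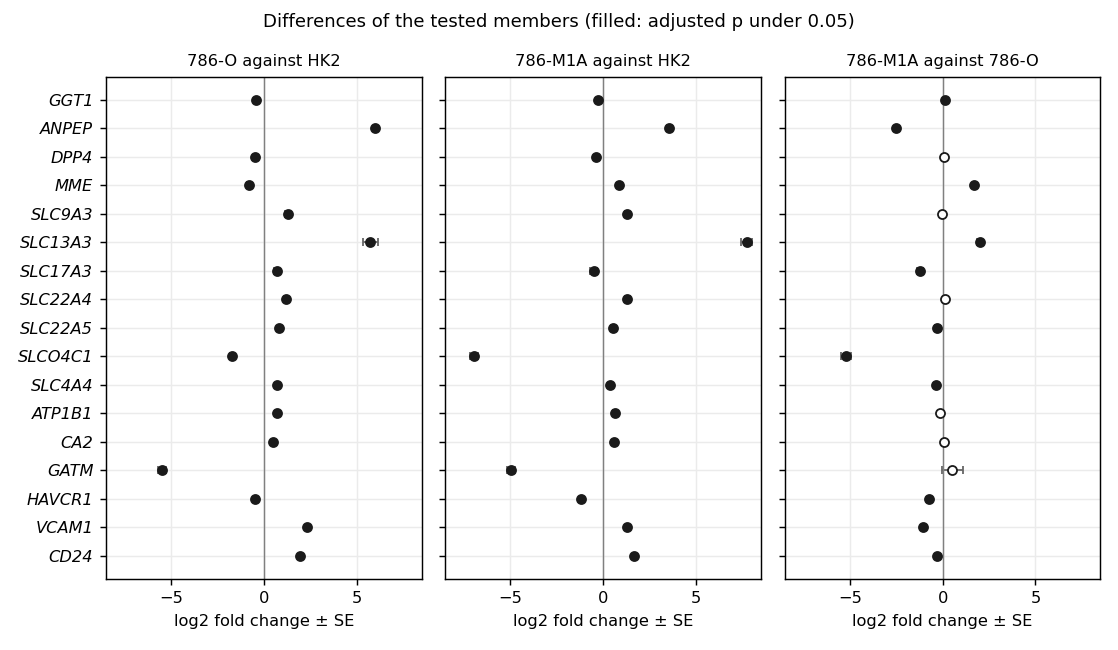
Log2 fold change with its standard error (SE) for the 17 tested members in the 3 comparisons of cell lines, from edgeR; filled points passed an adjusted p of 0.05 and open points did not. *ANPEP* and *SLC13A3* lie far to the right and *GATM* and *SLCO4C1* far to the left in both comparisons with HK2, and *MME* and *SLC17A3* lie on opposite sides of 0 in 786-O and 786-M1A.

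Of the 4 injury and progenitor markers, *HAVCR1*, *VCAM1* and *CD24* were among the most abundant members and moved in different directions, while *PROM1* was near the floor. *HAVCR1* encodes kidney injury molecule 1, a receptor for phosphatidylserine that injured tubule cells use to engulf dead neighbors. It was read at 207, 183 and 190 CPM in HK2, at 134, 136 and 141 CPM in 786-O and at 77.4, 87.6 and 84.2 CPM in 786-M1A. Every HK2 library thus lay above every 786-O library, and every 786-O library above every 786-M1A library. The fall was 1.41-fold in 786-O against HK2 (log2 fold change -0.49, SE 0.05, adjusted p = 6.77e-09 by edgeR), 2.32-fold in 786-M1A against HK2 (-1.22, SE 0.05, adjusted p = 3.14e-15) and 1.65-fold in 786-M1A against 786-O (-0.72, SE 0.05, adjusted p = 1.36e-10).

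*VCAM1*, the adhesion molecule that binds integrins of leukocytes and that marks tubule cells that fail to repair, was highest in the primary cancer line. Its level was 32.7, 33.3 and 31.7 CPM in HK2, 159, 164 and 173 CPM in 786-O and 77.3, 77.7 and 79.4 CPM in 786-M1A, with no overlap between lines. *VCAM1* was 5.07-fold higher in 786-O than in HK2 (log2 fold change 2.34, SE 0.04, adjusted p = 8.53e-22 by edgeR) and 2.40-fold higher in 786-M1A than in HK2 (1.26, SE 0.04, adjusted p = 4.97e-17). Between the cancer lines it was 2.11-fold lower in 786-M1A (-1.08, SE 0.04, adjusted p = 2.06e-15). *HAVCR1* and *VCAM1* therefore both fell from 786-O to 786-M1A, while against HK2 *HAVCR1* was lower and *VCAM1* higher in both cancer lines.

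*CD24*, a small surface glycoprotein, and *PROM1*, which encodes CD133, are together used to mark scattered progenitor-like cells of the tubule. In these lines they parted. *CD24* gave 149, 157 and 143 CPM in HK2, 557, 561 and 640 CPM in 786-O and 483, 477 and 472 CPM in 786-M1A. It was 3.91-fold higher in 786-O and 3.18-fold higher in 786-M1A than in HK2 (log2 fold changes 1.97 and 1.67, SE 0.05 for each, adjusted p = 1.06e-17 and 1.10e-16 by edgeR), and 1.23-fold lower in 786-M1A than in 786-O (-0.30, SE 0.05, adjusted p = 2.77e-05). *PROM1* had 4, 2 and 1 counts in the HK2 libraries, 2, 1 and 0 in 786-O and 0, 1 and 0 in 786-M1A, so no difference was detectable at this depth. The annotation lists 4 pseudogenes of *CD24*, of which 0 are in the table, so reads from near-identical copies could not be followed.

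Levels of different members can be compared only per length, as RPKM, the CPM divided by the length of the main transcript in kilobases. On that scale *HAVCR1* was the most abundant member in HK2 at 119 ± 7.57 (SD, n = 3), ahead of *CD24* at 69.5 ± 3.18. In 786-O *CD24* came first at 272 ± 21.8 and *HAVCR1* next at 84.5 ± 2.20, while *HAVCR1* and the third member, *ATP1B1* at 77.3 ± 9.75, lay within the spread of the latter. In 786-M1A *CD24* at 221 ± 2.72 was followed by *ATP1B1* at 71.1 ± 2.40, *CA2* at 56.7 ± 0.193 and *HAVCR1* at 51.2 ± 3.19. *HAVCR1* thus went from the first to the fourth place among the 38 members between HK2 and 786-M1A.

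The stretch just before a gene's start is where general and tissue-specific factors bind. RefSeq promoter windows (GRCh38.p14) were found for 32 of the 38 members, with no entry for *CA2*, *CA4*, *SLC47A1*, *SLC22A8*, *SLC22A3* and *SLC13A3*. Over the 250 bases before each start, both strands were searched for the TATA box TATAAA and the CCAAT box CCAAT. The hypoxia response core ACGTG and 1 form of the NF-kappaB site, GGACTTTCC, were searched for as well. Only these exact letters were sought, so other forms of such sites are not marked, also in the windows printed below. TATAAA was in 5 of 53 windows of members (9.43%), each at another gene, and in 10.7% of all 35116 RefSeq windows. CCAAT was in 22.6% of the members' windows and 32.0% of all, ACGTG in 18.9% and 18.5%, and GGACTTTCC in 1.89% and 0.333%, the last a single window of *ALPL*. These shares are a description without a test, since several windows of 1 gene can overlap. The 4 windows below are shown because they set 2 injury markers that were expressed in all 3 lines beside 2 transporters, *SLC34A1* and *SLC22A6*, that were near or at 0 counts. They are written from 5′ to 3′ on the strand of the gene and end at the base before the start, and capitals mark the matches.
VCAM1: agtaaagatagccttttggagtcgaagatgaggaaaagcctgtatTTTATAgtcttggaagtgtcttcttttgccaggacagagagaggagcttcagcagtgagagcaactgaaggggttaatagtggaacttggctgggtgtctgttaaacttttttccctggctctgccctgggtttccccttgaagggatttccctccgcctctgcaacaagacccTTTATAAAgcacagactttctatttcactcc
HAVCR1: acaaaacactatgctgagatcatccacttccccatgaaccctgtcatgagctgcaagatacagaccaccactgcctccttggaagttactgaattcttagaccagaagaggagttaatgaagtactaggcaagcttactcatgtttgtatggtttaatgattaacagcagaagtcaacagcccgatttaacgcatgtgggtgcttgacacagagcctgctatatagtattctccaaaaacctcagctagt
SLC34A1: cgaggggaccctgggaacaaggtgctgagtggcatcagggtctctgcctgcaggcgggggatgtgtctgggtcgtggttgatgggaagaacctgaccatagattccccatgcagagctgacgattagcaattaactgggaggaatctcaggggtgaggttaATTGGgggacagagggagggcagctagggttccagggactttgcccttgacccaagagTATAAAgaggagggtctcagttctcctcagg
SLC22A6: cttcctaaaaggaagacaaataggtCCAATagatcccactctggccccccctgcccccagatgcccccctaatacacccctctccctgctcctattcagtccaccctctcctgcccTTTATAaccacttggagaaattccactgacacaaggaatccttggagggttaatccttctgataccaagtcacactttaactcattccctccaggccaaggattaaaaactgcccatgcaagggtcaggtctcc

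The *VCAM1* window is chr1:100719492-100719741 on the plus strand. It holds TATAAA matches on both strands 31 and 29 bases before the start, which overlap in 1 run of capitals, besides a match 205 bases before it. The *HAVCR1* window, chr5:157059117-157059366 on the minus strand, holds none of the 4 motifs, and 3 of its bases lie in an exon of a GENCODE transcript. It lies inside the annotated gene, which reaches to position 157069407, so the stretch before that outer start was not searched. The *SLC34A1* window, chr5:177384184-177384433 on the plus strand, has TATAAA 31 bases and CCAAT 89 bases before the start. The *SLC22A6* window, chr11:62984968-62985217 on the minus strand, has TATAAA 134 bases and CCAAT 225 bases before the start. TATAAA was thus present at *VCAM1*, with high counts, and at *SLC22A6*, with none, and was not found in the window of *HAVCR1*, the most abundant member in HK2 per length.

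Of the 3 receptors for filtered protein, none reached the filter. *LRP2* was at 0 counts in all 9 libraries, which allows at most 0.0661 to 0.0993 CPM at this depth. *CUBN*, encoding cubilin, had 32, 22 and 30 counts in HK2, 27, 37 and 45 in 786-O and 32, 49 and 33 in 786-M1A. The lines overlapped, and without the filter on low counts *CUBN* passed only in 786-M1A against HK2 (ratio of pooled CPM 1.42, 95% counting interval 1.06 to 1.91, adjusted p = 0.0334 by edgeR). Without the filter edgeR gave the tested members smaller p-values against HK2 than with it. For *GATM* in 786-O against HK2 the adjusted p was 8.82e-93 without and 3.72e-15 with the filter (edgeR). P-values given without the filter, here and below, are therefore not comparable with the others. *AMN*, encoding amnionless, the partner that carries cubilin to the membrane, had 28, 47 and 40 counts in HK2, but 3, 5 and 3 in 786-O and 5, 2 and 2 in 786-M1A. Its pooled CPM was 11.1-fold lower in 786-O (5.95 to 22.8) and 12.2-fold lower in 786-M1A (6.21 to 27.4) than in HK2, with adjusted p = 3.31e-19 and 1.08e-18 by edgeR without the filter. *AMN* overlaps *CDC42BPB* on the other strand, and the use of strand in counting is not stated, so reads of this pair cannot be told apart.

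Among the 6 brush border enzymes, *ANPEP* showed the largest difference. It encodes aminopeptidase N (CD13), which trims peptides in the lumen, and lies at chr15:89784895-89814852 on the minus strand. It was read at 1.87, 1.84 and 1.54 CPM in HK2, at 116, 111 and 109 CPM in 786-O and at 20.3, 20.4 and 18.8 CPM in 786-M1A. *ANPEP* was thus low in the normal line, high in the primary cancer line and intermediate in the metastatic line, with wide gaps between all 3. The difference was 64.6-fold in 786-O against HK2 (log2 fold change 6.01, SE 0.07, adjusted p = 3.80e-25 by edgeR), 11.5-fold in 786-M1A against HK2 (3.52, SE 0.08, adjusted p = 5.28e-20), and 5.64-fold lower in 786-M1A than in 786-O (-2.50, SE 0.05, adjusted p = 4.66e-20).

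*MME*, encoding neprilysin (CD10), a peptidase of the brush border that is also a common marker of ccRCC, followed another order. It was read at 24.2, 22 and 23.6 CPM in HK2, at 11.4, 13.5 and 15 CPM in 786-O and at 40.4, 44.7 and 42.7 CPM in 786-M1A. It was 1.75-fold lower in 786-O than in HK2 (log2 fold change -0.81, SE 0.08, adjusted p = 1.76e-08 by edgeR) and 1.83-fold higher in 786-M1A than in HK2 (0.87, SE 0.07, adjusted p = 1.09e-09). Between the cancer lines *MME* was 3.21-fold higher in 786-M1A (1.68, SE 0.07, adjusted p = 1.10e-12), while *ANPEP* fell, so the peptidases of this membrane did not move as a group.

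The other brush border enzymes differed little or were near the floor. *GGT1*, the gamma-glutamyltransferase that starts the breakdown of glutathione in the lumen, lay between 105 and 110 CPM in HK2, 79.5 and 81.8 in 786-O and 85.0 and 94.6 in 786-M1A. It was 1.34-fold and 1.22-fold lower in 786-O and 786-M1A than in HK2 (adjusted p = 1.10e-08 and 3.09e-06 by edgeR) and 1.10-fold higher in 786-M1A than in 786-O (0.0141). The last call was lost under limma on log2 counts (adjusted p = 0.0669) and without 786-M1A replicate 1 (adjusted p = 0.10 by edgeR). *DPP4*, dipeptidyl peptidase 4, was read at 79.4 to 82.3 CPM in HK2, with 53.9 to 63.9 in 786-O and 59.2 to 62.0 in 786-M1A. It fell 1.38-fold and 1.33-fold against HK2 (adjusted p = 2.09e-08 and 1.31e-07 by edgeR), and 786-M1A and 786-O did not differ beyond their spread (log2 difference 0.05, SE 0.05, adjusted p = 0.403). *ALPL*, the tissue-nonspecific alkaline phosphatase, had 10, 6 and 13 counts in HK2 and at most 1 count in any library of the cancer lines. *CA4*, the membrane carbonic anhydrase, had 0, 2 and 3 counts in HK2 and 0 in all 6 cancer libraries. Reads of *GGT1* may be shared with related copies, since 5 of the 9 annotated are in the table.

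**Figure D3:**
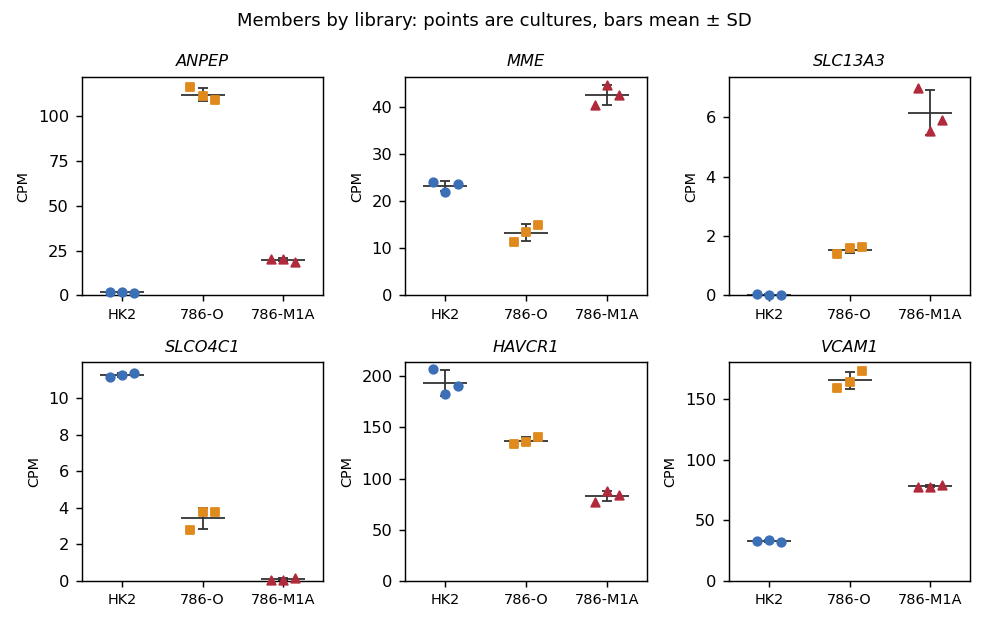
CPM of 6 members in each library (points) with the mean and SD of the 3 libraries of a line (bars), on linear axes from 0. *ANPEP* and *VCAM1* peak in 786-O, *MME* and *SLC13A3* are highest in 786-M1A, and *SLCO4C1* and *HAVCR1* are highest in HK2 and lowest in 786-M1A.

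Carriers of water, sodium, sugars, sulfate and dicarboxylates were mostly low, and 2 of 6 were tested. *SLC13A3* encodes the sodium-coupled carrier that takes up succinate, alpha-ketoglutarate and citrate, mainly across the basolateral membrane. The HK2 libraries held 2, 1 and 0 counts of it, those of 786-O 62, 60 and 69, and those of 786-M1A 253, 213 and 223. Since HK2 had only 3 counts in all, the difference is given as a ratio of pooled CPM, 60.2 in 786-O (95% counting interval 20.3 to 295) and 240 in 786-M1A (81.9 to 1168), with adjusted p = 2.46e-11 and 2.12e-16 by edgeR. Between the cancer lines *SLC13A3* was 3.99-fold higher in 786-M1A (log2 fold change 2.00, SE 0.13, adjusted p = 3.05e-11 by edgeR). The gene passed the filter only through 786-M1A, where it was highest, so none of these p-values adds support beyond the counts. *TP53RK* overlaps it on the same strand, which the counts cannot separate where exons are shared.

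*SLC9A3*, the sodium-proton exchanger NHE3 through which most sodium and bicarbonate is reclaimed, was read at 3.32, 2.73 and 2.59 CPM in HK2, 7.74, 6.38 and 6.71 in 786-O and 7.75, 6.62 and 6.21 in 786-M1A. Both cancer lines lay above HK2 and overlapped each other. The rise was 2.45-fold in 786-O and 2.41-fold in 786-M1A (log2 fold changes 1.29 and 1.27, SE 0.12 for each, adjusted p = 9.47e-10 and 1.52e-09 by edgeR), with a log2 difference of -0.02 (SE 0.10, adjusted p = 0.868) between the cancer lines. The gene overlaps *EXOC3* and an antisense transcript on the other strand.

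The sugar and water carriers did not reach the filter. *SLC5A2*, the luminal glucose carrier SGLT2, had 24, 36 and 20 counts in HK2, 10, 4 and 4 in 786-O and 5, 4 and 7 in 786-M1A, which put HK2 above both cancer lines in every library. Its pooled CPM was 4.70-fold lower in 786-O (2.79 to 8.33) and 4.78-fold lower in 786-M1A (2.77 to 8.76), with adjusted p = 5.34e-09 and 1.28e-08 by edgeR without the filter, and *RUSF1* overlaps it on the other strand. *SLC5A1*, the related carrier SGLT1, never exceeded 2 counts. *AQP1*, a water channel of the proximal tubule that is not confined to it, had only 16 to 36 counts in HK2, with 36 to 60 in 786-O and 26 to 37 in 786-M1A. In CPM it was 1.68-fold higher in 786-O than in HK2 (1.25 to 2.26, adjusted p = 0.00138 by edgeR without the filter), and the other comparisons did not pass.

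Phosphate carriers differed within each family. *SLC34A1*, the main sodium-phosphate carrier of the brush border whose promoter is printed above, had 7, 13 and 14 counts in HK2, 1, 3 and 2 in 786-O and 2, 6 and 6 in 786-M1A. It was lower in both cancer lines, 5.99-fold (2.49 to 17.5) and 2.32-fold (1.21 to 4.68) in pooled CPM, with adjusted p = 5.78e-05 and 0.0294 by edgeR without the filter. *SLC34A3*, its relative, ran the other way, with 8, 3 and 5 counts in HK2, 23, 13 and 25 in 786-O and 17, 18 and 8 in 786-M1A. The ratios to HK2 were 3.61 (2.05 to 6.70, adjusted p = 8.98e-06) and 2.81 (1.55 to 5.35, adjusted p = 9.73e-04, edgeR without the filter), and the libraries of 786-M1A and HK2 overlapped.

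*SLC17A1* and *SLC17A3*, neighbors on chromosome 6 that carry phosphate, urate and organic anions, were highest in different lines. *SLC17A1* fell in steps, from 46, 59 and 56 counts in HK2 to 11, 24 and 20 in 786-O and 6, 8 and 4 in 786-M1A, with no overlap. It was 3.10-fold lower in 786-O than in HK2 (2.27 to 4.28) and 2.76-fold lower in 786-M1A than in 786-O (1.60 to 5.00), with adjusted p = 3.32e-11 and 8.32e-04 by edgeR without the filter. *SLC17A3* gave 2.58, 2.21 and 2.27 CPM in HK2, 3.32, 3.29 and 4.66 in 786-O and 1.96, 1.56 and 1.38 in 786-M1A. It was 1.61-fold higher in 786-O than in HK2 (log2 fold change 0.69, SE 0.15, adjusted p = 2.00e-04 by edgeR) and 1.43-fold lower in 786-M1A than in HK2 (-0.52, SE 0.17, adjusted p = 0.00983). The second of these values depended on a single library, since without 786-M1A replicate 3 the adjusted p was 0.0557. Between the cancer lines *SLC17A3* was 2.31-fold lower in 786-M1A (-1.21, SE 0.16, adjusted p = 1.67e-06).

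Organic cation carriers showed opposite orders among close relatives. *SLC22A2* (OCT2) and *SLC22A3* (OCT3), neighbors on chromosome 6, bring organic cations into the cell. *SLC22A2* had 2, 3 and 5 counts in HK2, 28, 24 and 31 in 786-O and 2, 8 and 4 in 786-M1A, so that it was raised in the primary cancer line and in neither of the others. In pooled CPM it was 7.85-fold higher in 786-O than in HK2 (4.06 to 17.0, adjusted p = 5.03e-12 by edgeR without the filter) and 5.36-fold lower in 786-M1A than in 786-O (3.02 to 10.2, adjusted p = 6.60e-09). *SLC22A3* had 69, 87 and 110 counts in HK2, 6, 3 and 6 in 786-O and 17, 22 and 15 in 786-M1A, the reverse order with 786-O lowest. It was 18.8-fold lower in 786-O (11.2 to 34.0) and 4.71-fold lower in 786-M1A (3.50 to 6.43) than in HK2, and 3.98-fold higher in 786-M1A than in 786-O (2.22 to 7.6), with adjusted p = 3.45e-50, 1.06e-24 and 4.25e-06 by edgeR without the filter. These p-values are not on the scale of those with the filter.

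*SLC22A4* (OCTN1) and *SLC22A5* (OCTN2), the carriers of ergothioneine and carnitine, were higher in both cancer lines. *SLC22A4* rose from 2.00, 2.01 and 1.75 CPM in HK2 to 4.31, 4.36 and 4.44 in 786-O and 5.15, 4.25 and 4.76 in 786-M1A, or 2.29-fold and 2.47-fold (log2 fold changes 1.19, SE 0.11, and 1.30, SE 0.12, adjusted p = 3.14e-09 and 6.91e-10 by edgeR). *SLC22A5*, through which cells take up the carnitine needed to move fatty acids into mitochondria, was read at 11.1, 12.8 and 11 CPM in HK2, 20.1, 21.0 and 21.9 in 786-O and 18.3, 14.8 and 16.9 in 786-M1A. It was 1.80-fold higher in 786-O and 1.43-fold higher in 786-M1A than in HK2 (log2 fold changes 0.85 and 0.52, SE 0.08 for each, adjusted p = 1.24e-09 and 3.50e-06 by edgeR) and 1.26-fold lower in 786-M1A than in 786-O (-0.33, SE 0.07, adjusted p = 5.67e-04). Both genes overlap other genes on the opposite strand. Of the multidrug exporters, *SLC47A1* (MATE1) had 0 counts in HK2 and 786-M1A and 1, 1 and 2 in 786-O. *SLC47A2* (MATE2) had 11, 4 and 5 counts in HK2, 15, 10 and 16 in 786-O and 2, 0 and 5 in 786-M1A, 5.29-fold lower in 786-M1A than in 786-O (2.35 to 14.0, adjusted p = 8.92e-05 by edgeR without the filter), and *ALDH3A2* overlaps it on the other strand.

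Of the organic anion carriers, *SLC22A6* (OAT1) and *SLC22A8* (OAT3), which take up drugs and waste products from blood, were at 0 counts in all 9 libraries. *SLCO4C1*, a basolateral carrier of cardiac glycosides and thyroid hormone at chr5:102233986-102296284 on the minus strand, was the only one expressed. It gave 11.2, 11.3 and 11.4 CPM in HK2, 2.77, 3.75 and 3.76 CPM in 786-O, and 0.0553, 0.0522 and 0.159 CPM in 786-M1A, where the libraries held 2, 2 and 6 counts. The gene thus fell in 2 steps and reached the floor in the metastatic line. It was 3.32-fold lower in 786-O than in HK2 (log2 fold change -1.73, SE 0.10, adjusted p = 6.18e-13 by edgeR). In 786-M1A its pooled CPM was 127-fold lower than in HK2 (95% counting interval 68.9 to 266, adjusted p = 3.44e-18) and 38.2-fold lower than in 786-O (20.6 to 80.3, adjusted p = 5.47e-13). *SLCO4C1* passed the filter only through HK2, where it was highest, so none of its p-values adds support beyond the counts. None of the 4 motifs was found in the window before its start.

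The basolateral ion carriers and the cytosolic carbonic anhydrase were higher in both cancer lines, each by less than 2-fold. *SLC4A4*, the sodium-bicarbonate cotransporter NBCe1 that returns bicarbonate to blood, was read at 53.8, 49.3 and 51.3 CPM in HK2, 77.9, 90.0 and 83.4 in 786-O and 61.4, 68.6 and 66.6 in 786-M1A. It was 1.63-fold higher in 786-O and 1.27-fold higher in 786-M1A than in HK2 (log2 fold changes 0.70 and 0.35, SE 0.05 for each, adjusted p = 1.99e-10 and 6.60e-06 by edgeR) and 1.28-fold lower in 786-M1A than in 786-O (-0.35, SE 0.05, adjusted p = 1.17e-05). *ATP1B1*, the beta subunit of the sodium pump, gave 105, 106 and 98.0 CPM in HK2, 151, 169 and 194 in 786-O and 151, 161 and 160 in 786-M1A. It rose 1.66-fold and 1.53-fold (adjusted p = 2.74e-06 and 1.35e-05 by edgeR), and the cancer lines overlapped (log2 difference -0.12, SE 0.08, adjusted p = 0.20). *CA2*, which makes bicarbonate in the cytosol, lay at 56.8 to 61.6 CPM in HK2, with 82.3 to 87.1 in 786-O and 88.4 to 88.9 in 786-M1A, 1.42-fold and 1.48-fold above HK2 (adjusted p = 3.01e-10 and 4.68e-11 by edgeR) with a log2 difference of 0.06 (SE 0.04, adjusted p = 0.263) between the cancer lines. *ATP1B1* overlaps *NME7* and *CA2* overlaps an antisense transcript.

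All 3 metabolic enzymes were lower in the cancer lines than in HK2, though only *GATM* reached the filter. *GATM* encodes the amidinotransferase that makes guanidinoacetate from arginine and glycine, the first step of creatine synthesis, and lies at chr15:45361124-45402227 on the minus strand. It had 108, 167 and 163 counts in HK2, or 3.48, 4.15 and 3.52 CPM, and 5, 2 and 3 counts in 786-O and 3, 6 and 4 in 786-M1A. The pooled CPM was 46.3-fold lower in 786-O (95% counting interval 24.9 to 97.3) and 32.2-fold lower in 786-M1A (18.6 to 60.9), with adjusted p = 3.72e-15 and 9.28e-15 by edgeR. *GATM* passed the filter only through HK2, so these p-values add no support beyond the counts. Both cancer lines were close to the floor, and their difference did not pass the test (log2 difference 0.51, SE 0.56, adjusted p = 0.471).

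*DDC*, the decarboxylase with which the tubule makes dopamine, had 20, 30 and 31 counts in HK2, 1, 2 and 4 in 786-O and 0, 2 and 1 in 786-M1A. It was 12.2-fold lower in 786-O (5.68 to 31.4) and 25.8-fold lower in 786-M1A (8.52 to 128) in pooled CPM, with adjusted p = 3.59e-14 and 5.66e-16 by edgeR without the filter. *SLC27A2*, an acyl-CoA synthetase that activates very long chain fatty acids, had 11, 20 and 14 counts in HK2, 2, 1 and 0 in 786-O and 0 in each library of 786-M1A. It was 15.9-fold lower in 786-O (5.09 to 79.8) and, against a floor of 3 counts over the group, at least 14.3-fold lower in 786-M1A, with adjusted p = 1.00e-08 and 3.77e-11 by edgeR without the filter. Each of these 2 genes overlaps a gene on the other strand.

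**Figure D4:**
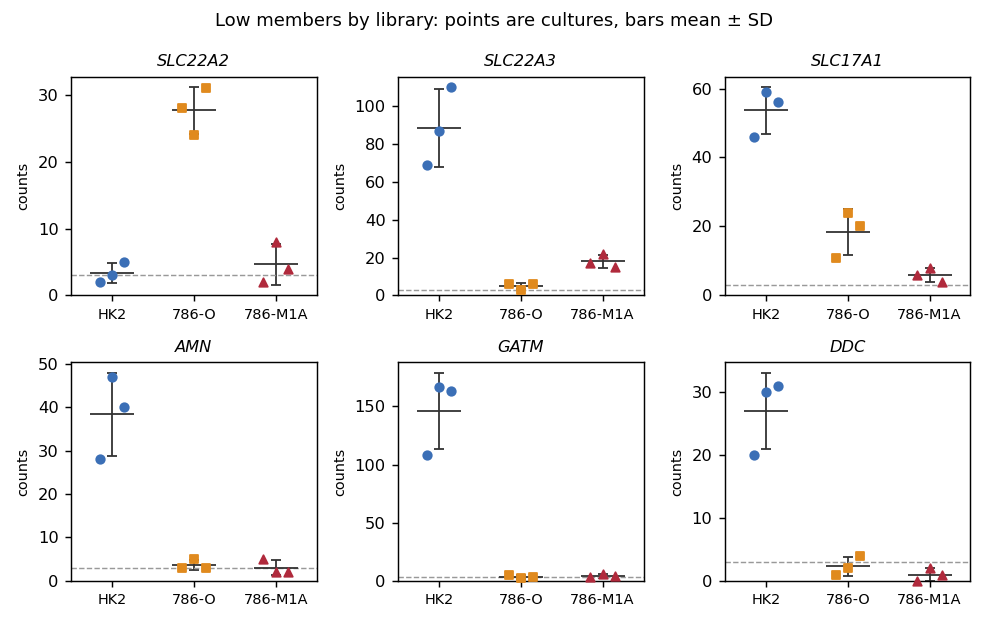
Counts of 6 members in each library (points) with the mean and SD of the 3 libraries of a line (bars); the dashed line is the floor of 3 counts. *AMN*, *GATM* and *DDC* are above the floor in HK2 and close to it in both cancer lines, *SLC22A2* is raised in 786-O alone, and *SLC22A3* is lowest in 786-O.

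Without the filter on low counts, 34 members had counts. This fit gave the tested members smaller p-values against HK2 than the fit with the filter. Of the 17 added, 13 differed in 786-O against HK2, 4 higher and 9 lower, and 11 differed in 786-M1A against HK2, 2 higher and 9 lower. Of all 34, 30 and 28 differed in these comparisons, 15 and 13 higher and 15 and 15 lower. Of the 21241 genes with counts, 63.8% and 64.7% differed, 30.5% and 30.2% of all being higher and 33.3% and 34.5% lower. Between the cancer lines 4 of the 17 differed, *SLC22A3* higher and *SLC17A1*, *SLC22A2* and *SLC47A2* lower in 786-M1A. Of all 34, 16 differed there, 4 higher and 12 lower, beside 38.0% of all genes, 18.6% higher and 19.5% lower. These shares include the genes that passed the filter. No share was taken over the genes under it alone, so the 17 have no background of their own. At least a 2-fold difference was found for 19, 19 and 10 of the 34 members in the 3 comparisons, beside 25.5%, 27.8% and 7.49% of all genes with counts.

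A wider list of other proximal tubule genes was counted beside the members. Of all genes tested, 84.2% differed in 786-O against HK2, 84.9% in 786-M1A against HK2 and 56.0% in 786-M1A against 786-O. In the same order, 41.6%, 41.6% and 27.9% of all were higher and 42.6%, 43.3% and 28.0% lower. Of 79 in the table, 26 were tested, and 14 were higher and 10 lower in 786-O than in HK2, with a median log2 fold change of 0.33. In 786-M1A against HK2 12 were higher and 12 lower (median -0.10), and between 786-M1A and 786-O 5 were higher and 11 lower (median -0.28). *ENPEP*, aminopeptidase A, rose with *ANPEP* in 786-O but was highest in 786-M1A, at 4.98 ± 0.513 CPM in HK2, with 72.2 ± 5.57 in 786-O and 123 ± 6.11 in 786-M1A (SD, n = 3), with adjusted p = 1.09e-19 and 4.38e-21 against HK2 by edgeR. *SLC1A1*, the carrier of glutamate, rose from 3.07 ± 0.0952 to 25.0 ± 0.410 and 24.8 ± 1.24 CPM. *MIOX*, which opens inositol in the tubule, was lower in both cancer lines, at 0.445 ± 0.195 CPM in 786-O and 0.25 ± 0.0795 in 786-M1A against 9.2 ± 0.697 in HK2, and *SLC2A2*, the basolateral glucose carrier GLUT2, was lower in 786-M1A, at 0.0798 ± 0.0253 CPM against 3.17 ± 0.413 in HK2 and 2.67 ± 0.247 in 786-O. *SLC16A9*, a carrier of carnitine, had 12.1 ± 0.398 CPM in HK2, with 0.196 ± 0.105 in 786-O and 0 counts in 786-M1A, the same order as *SLCO4C1*. *PDZK1IP1* was 1.39-fold higher in 786-M1A than in 786-O (adjusted p = 5.23e-07 by edgeR).

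A list of other genes of tubule injury and repair had 37 of 39 tested, and its counts stand beside the 84.2%, 84.9% and 56.0% of all genes that differed in the 3 comparisons. In 786-O 13 were higher and 22 lower than in HK2 (median log2 fold change -0.53), in 786-M1A 15 were higher and 22 lower than in HK2 (-0.45), and 19 were higher and 12 lower in 786-M1A than in 786-O (0.13). *ANXA1*, a phospholipid-binding protein that limits inflammation, was read at 79.2 ± 4.33 CPM in HK2, with 487 ± 5.63 in 786-O and 588 ± 13.2 in 786-M1A (SD, n = 3), and the chemokine *CCL2* at 0.278 ± 0.0743, 2.46 ± 0.216 and 4.38 ± 0.357. The keratin *KRT7* was far higher in HK2, at 263 ± 11.8 CPM against 0.510 ± 0.133 in 786-O and 0.186 ± 0.0482 in 786-M1A, as was the fibrinogen chain *FGB* at 62.2 ± 2.51, 0.437 ± 0.138 and 0.0361 ± 0.0313. The keratin *KRT19* (31.5-fold) and *ANXA3* (4.01-fold) were higher in 786-M1A than in 786-O, and the integrin subunit *ITGB6* was 4.10-fold lower, with adjusted p = 4.82e-18, 1.34e-19 and 7.29e-14 by edgeR.

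Markers of other cell types were low for the collecting duct and endothelium, while the other lists held both silent and expressed genes. The collecting duct list summed to 1.94 to 2.53 CPM in HK2, with 1.15 to 1.54 in 786-O and 1.11 to 1.43 in 786-M1A, with *AQP2* at 0 in all libraries. The endothelial list summed to 0.368 to 0.644, 0.106 to 0.451 and 0.965 to 1.25 CPM. Of 7 leukocyte markers, *PTPRC*, *CD3E*, *MS4A1* and *TYROBP* were at 0 in all libraries, and the sum of 60.4 to 64.2 CPM in HK2, with 33.1 to 35.2 in 786-O and 38.0 to 41.9 in 786-M1A came mostly from *CD68*. The thick limb and distal tubule list, with *UMOD*, *KCNJ1* and *PVALB* at 0 throughout but *CLDN16* at 10.7 ± 0.332 CPM and *EGF* at 6.91 ± 0.298 CPM in HK2, summed to 17.2 to 18.4 CPM in HK2, with 3.79 to 4.07 in 786-O and 0.941 to 1.19 in 786-M1A. The podocyte list summed to 105 to 120, 664 to 714 and 1037 to 1065 CPM, and the fibroblast and pericyte list to 103 to 111, 289 to 358 and 312 to 316 CPM. The sums of these lists differed between lines, and their part in the members' differences was not tested.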

How the data were processed

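RNA was sequenced from 3 human kidney cell lines, 3 libraries each, grouped by the labels. The authors made TruSeq Stranded mRNA libraries, and deposited raw gene counts on GRCh38 (featureCounts, per the submitters' processing notes). The strand setting and annotation version are not given in the sources used here. The table lists 28395 NCBI gene identifiers, 27745 of which matched a RefSeq symbol. Positions came from GENCODE release 44. The study's log2, VSN and limma steps are not in the deposited counts.

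The 12695 genes whose counts averaged 50 or more across libraries were fitted at once with the robust quasi-likelihood model of edgeR 4.0.16 (TMM, R 4.3.3), and p-values were adjusted by Benjamini-Hochberg with a threshold of 0.05. SEs follow from the log2 fold change and its F statistic. Ratios of members under the filter are of pooled CPM with 95% intervals from the exact binomial. Intervals and floors cover counting error only. On simulated counts for the 12695 genes, edgeR recovered 100, 99 and 98 of 100 genes changed 2-fold in 786-O against HK2, 786-M1A against HK2 and 786-M1A against 786-O. Of 100 changed 1.4-fold it recovered 87, 94 and 90, with 17, 15 and 12 false calls. Only 200 genes were changed, far fewer than differed in the data, so scaling under such wide differences was not tried. Alternatives were DESeq2 1.42.0, limma-voom and log2 counts with limma 3.58.1, RLE and upper-quartile scaling, other filters, a fit of only the lines compared, a replicate block, and leaving out each library. All members are named. From each other list, the 2 genes with the largest rise and the 2 with the largest fall among those past the threshold in each comparison were open to naming. The members and lists were chosen with earlier results of these data known. *SLC22A18* and *NDUFA4L2*, on the lists, were not analysed here. The clear cell carcinoma list is given in the closing section. Some items searched for or listed are not reported here.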

Additional observations from a re-analysis of the deposited data

Results flagged for a closer look

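Among the 17 tested members, *MME* and *SLC17A3* were the ones whose difference from HK2 had opposite signs in the cancer lines and passed the test in both. For *MME* the log2 difference from HK2 came to -0.81 in 786-O and 0.87 in 786-M1A, and their difference, tested directly as 786-M1A against 786-O, was 1.68 (SE 0.07, adjusted p = 1.10e-12 by edgeR). For *SLC17A3* it was 0.69 in 786-O and -0.52 in 786-M1A, a difference of -1.21 (SE 0.16, adjusted p = 1.67e-06 by edgeR). All 3 libraries of each cancer line lay on the same side of all 3 HK2 libraries for both genes. Both effects against HK2 share the HK2 libraries. The fall of *SLC17A3* in 786-M1A was the less firm, with an adjusted p of 0.0557 without 786-M1A replicate 3.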

How the results depend on the processing

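The counts of members that differed kept to within 1.5 times of their value under DESeq2, limma-voom, limma on log2 counts, RLE and upper-quartile scaling and a fit of only the lines compared. Without the filter on low counts they were 30 in 786-O against HK2 and 28 in 786-M1A against HK2, and at least a 2-fold difference was found for 19, 19 and 10 members in 786-O against HK2, 786-M1A against HK2 and 786-M1A against 786-O, beside 25.5%, 27.8% and 7.49% of all genes, since 34 rather than 17 members enter. With at least 10 counts required in every library, 5 members differed at least 2-fold in 786-O against HK2, since this filter drops *SLC13A3*, *SLCO4C1* and *GATM*. Leaving out 1 library at a time gave 17 to 17, 16 to 17 and 10 to 12 members that differed and 8 to 8, 9 to 9 and 6 to 6 with at least 2-fold, in the same order of comparisons. The labels do not say whether same-numbered libraries belong together, and the main fit did not pair them. Their deviations correlated at -0.167 to 0.215, and at 0.215, 0.074 and 0.11 between 786-M1A and 786-O. Such values cannot decide whether the dishes were handled in pairs. With the replicate block, 17, 17 and 11 members differed, as without it. For single members, 900 of 909 values kept their direction and side of the threshold. *SLC9A3* between the cancer lines, never past the threshold, ranged from -0.12 to 0.07 when 1 library was left out and changed sign without 786-O replicate 1 (0.07), 786-M1A replicate 2 (0.00) or 786-M1A replicate 3 (0.04). *GGT1* in 786-M1A against 786-O lost its call under limma on log2 counts (adjusted p = 0.0669) and without 786-M1A replicate 1 (0.10). *DPP4* and *ATP1B1* passed between the cancer lines without 786-O replicate 3 (0.0496) and without 786-O replicate 1 (0.00402), and *ATP1B1* also without the filter (0.0208). The cause was not tested. Members near the floor of 3 counts limit what can be compared, and with 1 line per condition, line and condition cannot be told apart.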

Other observations

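Markers of ccRCC were counted in the same way. Of the 9 listed genes with counts deposited 7 were tested, and 4 were higher and 1 lower in 786-O than in HK2, 5 higher and 1 lower in 786-M1A than in HK2, and 5 higher in 786-M1A than in 786-O with 2 that did not pass, beside 84.2%, 84.9% and 56.0% of all genes that differed. *EGLN3*, a prolyl hydroxylase induced by hypoxia signaling, gave 1.72 ± 0.243 CPM in HK2, with 50 ± 5.94 in 786-O and 128 ± 3.35 in 786-M1A (SD, n = 3). *VEGFA*, the angiogenic growth factor, gave 19.4 ± 0.537, 163 ± 11.2 and 330 ± 3.44 CPM. *NNMT*, which methylates nicotinamide, was lower, at 251 ± 8.77 CPM in HK2, with 89.8 ± 1.74 in 786-O and 99.2 ± 4.68 in 786-M1A. *CA9* had 0 counts in HK2, but it was under the filter over the 9 libraries and was not tested, so no rise in the cancer lines is claimed. In each cancer line 2 of the 9 listed genes never exceeded 3 counts.

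Among markers of other kidney cells, *CLDN16*, a claudin of the thick limb, and *EGF* were the tested members of their list and fell in both cancer lines, *CLDN16* from 10.7 ± 0.332 CPM in HK2 to 0.786 ± 0.199 in 786-O and 0.00881 ± 0.0153 in 786-M1A, and *EGF* from 6.91 ± 0.298 to 2.96 ± 0.127 and 1.04 ± 0.125 (SD, n = 3). Of 3 tested podocyte markers, *WT1* had 0 counts in HK2 and 34.3 ± 0.409 and 45.8 ± 1.09 CPM in 786-O and 786-M1A, *SYNPO* gave 47.3 ± 4.05, 594 ± 25.6 and 963 ± 17.6 CPM, and *PODXL* was lower in both cancer lines. Of 6 tested fibroblast and pericyte markers, *COL1A1* was highest in 786-O, at 53.8 ± 4.23, 292 ± 34.7 and 16.5 ± 1.24 CPM, and *PDGFRB* was highest in 786-M1A, at 5.00 ± 0.607, 2.60 ± 0.366 and 282 ± 3.08 CPM in HK2, 786-O and 786-M1A. The leukocyte markers *CD68* and *CSF1R* were lower in both cancer lines than in HK2.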
